A study of Caenorhabditis elegans with 2 samples.

Results

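The regions described here are the binding sites of the transcription factor CRH-2 that fell inside autosomal introns and away from annotated promoters. A replicated peak was taken when its summit lay on chromosomes I to V, in an intron of a protein-coding gene, in no annotated exon of any kind, and outside the window 1000 bp upstream to 250 bp downstream of every protein-coding transcript 5′ end. Of 5735 replicated peaks, 584 met this rule, which is 12.8% of the 4568 autosomal peaks (Wilson 95% interval 11.8 to 13.8). On X, with the same rule, 167 of 1167 peaks were intronic (14.3%, interval 12.4 to 16.4). The rule itself uses position, but the list it was applied to had been chosen by the authors on signal and on agreement between the replicates.

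The study measured where CRH-2 sits on DNA by chromatin immunoprecipitation and sequencing (ChIP-seq) of whole Caenorhabditis elegans at the second larval stage (L2), with both sexes pooled. All animals came from strain OP425, genotype unc-119(tm4063) III; wgIs425, a transgenic line in which C27D6.4, that is crh-2, is fused at its C-terminus to GFP and FLAG. The data form 1 group of 2 biological replicates, with no mutant, treatment or second stage, so no comparison between conditions exists. The tagged protein was expressed from a transgene in a single line, and whole larvae mix all tissues, so no peak can be assigned to a cell type. The files give scored regions and no reads, so the read depth of each replicate is unknown, and the control library is not analysed here.

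CRH-2 is a basic leucine zipper (bZIP) protein of the CREB3 family. In mammals, proteins of this family are held in the endoplasmic reticulum membrane, are released by proteolysis, and bind DNA elements built on the core TGACG. Many worm introns are very short, whereas long introns, often near the 5′ end of a gene, can hold enhancers and the promoters of shorter transcripts. Trans-splicing of many worm messenger RNAs means that transcription can start upstream of the 5′ end in the annotation.

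Sequence at the summits is shown first for the 4 strongest members and for the strongest member with each of several motifs. Each line is the 101 bp window centred on a summit, on the plus strand of WBcel235 (ce11), from the RefSeq genome. Capitals mark every match, on either strand, to TGACGTCA (the palindromic cAMP response element, CRE), TGACGTGG and TGACGTGT (elements of the type bound by CREB3 proteins in mammals), TGACG (their shared core), the E-box CACGTG, the repeat GAGAGAGA, the box GGGCGG, the C/EBP-type site TTGCGCAA or the GATA-type site TGATAA. The 4 strongest come from the introns of daf-14 (chrIV:10252538-10252638), fkh-7 (chrIV:5593980-5594080), Y111B2A.12 (chrIII:12612600-12612700) and ncl-1 (chrIII:7728714-7728814). The others are the strongest with TGACGTCA, in crh-1 (chrIII:11684909-11685009), the strongest with TGACGTGT, in hlh-30 (chrIV:4026019-4026119), and a GAGAGAGA member in daf-5 (chrII:14040455-14040555).
daf-14: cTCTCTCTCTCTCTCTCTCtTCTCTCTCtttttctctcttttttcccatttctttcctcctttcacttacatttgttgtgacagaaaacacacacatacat
fkh-7: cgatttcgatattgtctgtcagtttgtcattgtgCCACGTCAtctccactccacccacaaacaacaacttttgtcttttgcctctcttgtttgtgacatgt
Y111B2A.12: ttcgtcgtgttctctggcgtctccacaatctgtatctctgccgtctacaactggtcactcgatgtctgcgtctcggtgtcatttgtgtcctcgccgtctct
ncl-1: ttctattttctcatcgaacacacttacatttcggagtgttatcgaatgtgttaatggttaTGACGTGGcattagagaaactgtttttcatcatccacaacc
crh-1: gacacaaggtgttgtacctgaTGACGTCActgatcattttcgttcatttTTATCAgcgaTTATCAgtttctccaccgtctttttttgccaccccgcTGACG
hlh-30: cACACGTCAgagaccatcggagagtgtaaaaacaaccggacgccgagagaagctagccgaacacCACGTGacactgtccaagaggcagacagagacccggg
daf-5: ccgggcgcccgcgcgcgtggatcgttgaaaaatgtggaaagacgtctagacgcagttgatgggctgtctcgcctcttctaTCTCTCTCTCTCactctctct

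The daf-14 window opened with a run of GA repeats, read as TC on the plus strand, and held no TGACG. Both fkh-7 and ncl-1 held TGACGTGG, on opposite strands. The Y111B2A.12 window held none of the 9 motifs, although its signal ranked 3 among the members. The crh-1 window held the palindromic element, another TGACG core and a pair of GATA sites, and the hlh-30 window held TGACGTGT and an E-box.

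The strongest members belonged to genes of several kinds. Signal is given below as the authors' value for a region in the pooled list, and as a relative signal. For that, the highest region overlapping the peak in a library was scaled to the library's median for the 5735 peaks. A relative signal of 1 is therefore a typical peak of that replicate. The strongest member lay in the first intron of daf-14, which encodes a Smad of the dauer TGF-beta pathway. It had a signal of 817.7, ranked 21 among all 5735 peaks, and had relative signals of 7.04 in replicate 1 and 8.26 in replicate 2. Its interval was chrIV:10252340-10252774, its summit was 1078 bp upstream of an internal 5′ end of daf-14 itself, and the nearest promoter summit was 803 bp away.

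The second was in the first intron of fkh-7, a forkhead transcription factor gene, with a signal of 763.6 and relative signals of 7.30 in replicate 1 and 6.90 in replicate 2. That intron is 16465 bp long, and the summit (chrIV:5593889-5594211 for the interval) was 7677 bp from the nearest 5′ end. Next was a peak in the fourth intron of Y111B2A.12 (chrIII:12612465-12612802), with a signal of 755.4 and relative signals of 7.76 and 6.47 in replicates 1 and 2. The fourth was in ncl-1, whose product is a B-box protein known for keeping nucleoli small. It had a signal of 722.9 and relative signals of 5.90 and 7.91 in replicates 1 and 2, and its intron was numbered 1, 2 or 3 depending on the transcript (chrIII:7728577-7728917). The fifth was in ppfr-1, which encodes a regulatory subunit of protein phosphatase 4, with a signal of 617.8 and relative signals of 6.32 and 5.26 in replicates 1 and 2 (chrI:9381190-9381676). All 5 stood at more than 5 times the median in both replicates.

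Ranks 6 to 20 ran from a signal of 489.9 in dhc-4, a dynein heavy chain gene, to 328.3 in larp-1, which encodes a La-related RNA-binding protein. Transcription factor and chromatin genes among these hosts were nhr-19, a nuclear hormone receptor gene (411.6), mef-2, the MEF2 homologue (387.3), and zfp-1, the AF10 homologue (358.4). Kinase and metabolic hosts were mnk-1, a kinase that acts below MAP kinases (442.2), coq-3, a methyltransferase of ubiquinone synthesis (395.7), and nhx-8, a sodium/proton exchanger (402.7). The autophagy gene epg-9 (447.8), the DnaJ gene dnj-24 (391.4) and the polyglutamine protein gene pqn-41 (406.2) were further hosts. The remaining hosts were Y43F8B.2 (477.2), W06H8.6 (475.4), T28F4.1 (414.9) and C35B1.2 (367.9).

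Within these 20, the replicates were closest as a ratio for epg-9, with relative signals of 4.17 and 4.23 in replicates 1 and 2. They were farthest apart as a ratio for coq-3, at 4.50 in replicate 1 and 2.87 in replicate 2, and that 2.87 was the lowest value of any of the 20 in either replicate. Of the 20, 11 lay in a first intron and 7 lay on chromosome III. TGACG was found in 6 of the 20 windows, CACGTG in 3 and GAGAGAGA in 3, and 9 windows held none of the 9 motifs. The dhc-4 summit was 25 bp from an annotated small nuclear RNA (snRNA) gene, and its part in that signal was not tested.

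**Figure D1:**
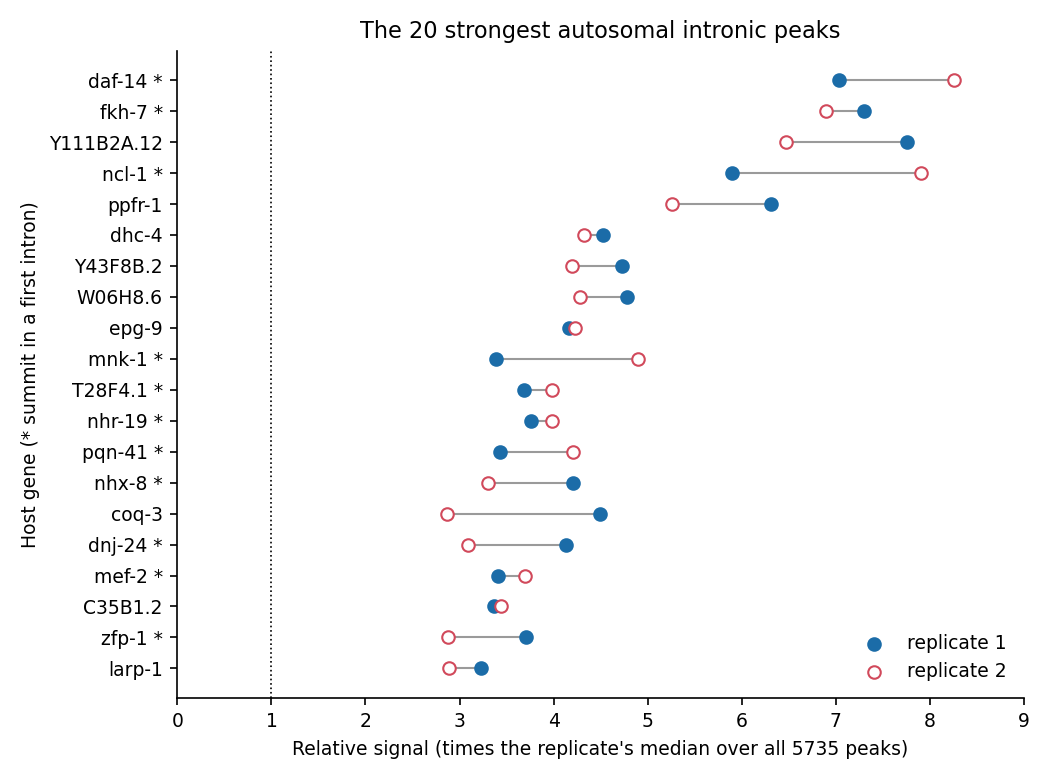
Relative signal (times the replicate's median over all 5735 peaks) of the 20 strongest autosomal intronic peaks, named by host gene; filled points are replicate 1, open points replicate 2, and an asterisk marks a summit in a first intron. The daf-14, fkh-7, Y111B2A.12, ncl-1 and ppfr-1 peaks are the highest in both replicates, and the lowest point is 2.87, for coq-3. In replicate 2 the margin is narrow, with ppfr-1 at 5.26 and mnk-1 at 4.90.

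As a class, the intronic peaks were weaker than autosomal promoter and intergenic peaks. Their signals ran from 62.42 to 817.7 with a median of 92.09 and quartiles of 72.94 and 134.3, against medians of 109.0 for 2746 autosomal promoter peaks, 101.0 for 940 autosomal intergenic peaks and 97.58 for the 167 intronic peaks on X. In relative signal their median was 0.897 in replicate 1 and 0.907 in replicate 2 (0.902 ± 0.00683, SD, n = 2), against 1.047 and 1.068 for promoter peaks (1.057 ± 0.0150) and 0.998 and 0.989 for intergenic peaks (0.994 ± 0.00631). These gaps were larger than the spread between the replicates. Among the strongest 573 peaks, which make up 9.99% of all peaks, there were 38 of the 584 intronic peaks, or 6.51%. That share was 5.99% for X intronic, 7.66% for autosomal intergenic and 12.2% for autosomal promoter peaks. The stronger 2867 peaks, 49.99% of all peaks, held 233 of the 584 (39.9%). They held 43.7% of X intronic, 48.7% of autosomal intergenic and 54.1% of autosomal promoter peaks. No test was run, and the SD over the 2 replicates is the measure of error over samples given here.

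Most intronic peaks were seen at similar strength in both libraries, with less overlap at the top of each list than for all peaks. All 584 overlapped a region in each replicate's list of 30000. Among the strongest 5735 regions of replicate 1 there were 510 (87.3%), against 89.2% of all peaks, and among those of replicate 2 there were 489 (83.7%), against 87.6% of all peaks. In both there were 420 (71.9%, Wilson 95% interval 68.1 to 75.4), against 77.7% of all peaks and 79.4% of autosomal promoter peaks. The 5 found in neither were weak peaks with signals of 62.99 to 65.73, in hlh-30, Y42H9AR.5, spv-1, acox-1.3 and mbk-2. Peaks were chosen on the pooled list, so these shares are not independent of either library.

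The 2 replicates differed by less than 2-fold in relative signal at 551 of the 584 peaks (94.4%). The share at 2-fold or more was close to the 5.61% of all peaks. Replicate 1 was the higher by that much at 24 of the intronic peaks and replicate 2 at 9. Across the 584 peaks, which share both libraries and are not independent samples, Spearman's rho between the replicates was 0.638, against 0.734 over all 5704 peaks with both values. It was 0.610 over X intronic peaks, 0.715 over autosomal intergenic peaks and 0.771 over autosomal promoter peaks. The log2 ratio of replicate 1 to replicate 2 had a median of 0.01 and an SD of 0.52, against an SD of 0.51 over all peaks. The widest gap in favour of replicate 1 was at a peak in dhhc-3, a palmitoyltransferase family gene, at 1.18 in replicate 1 and 0.268 in replicate 2, which is 4.40-fold. The widest in favour of replicate 2 was at the weaker of 2 peaks in larp-1, at 0.249 in replicate 1 and 1.01 in replicate 2, which is 4.07-fold. Both are among the weaker members, with signals of 75.32 and 66.16.

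**Figure D2:**
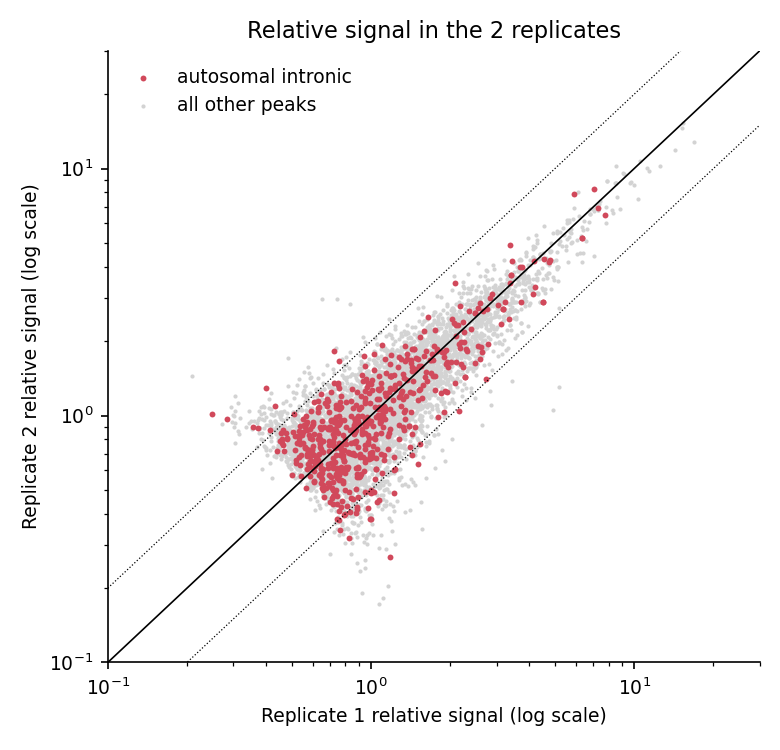
Relative signal of each peak in replicate 1 (horizontal) and replicate 2 (vertical), both on log axes, for autosomal intronic peaks (red) and all other peaks (grey); the solid line is equality and the dotted lines are 2-fold differences. Of the 584 intronic peaks, 551 lie between the dotted lines, and the widest scatter is at low signal.

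The peaks were concentrated in long introns, and per base they were denser in first than in later introns. A first intron here is intron 1 of any protein-coding transcript, and eligible intron is all intron sequence where a summit would have met the rule, 21.78 Mb on the autosomes. Of 584 summits, 271 lay in a first intron (46.4%, Wilson 95% interval 42.4 to 50.5), whereas first introns hold 26.8% of the eligible bases. First introns held 46.5 summits per Mb and later introns 19.6. The strongest 5735 regions of each replicate, classified on their own, gave 47.4 and 46.3 per Mb in first introns (46.8 ± 0.728, SD, n = 2), against 20.3 and 18.7 per Mb in later introns (19.5 ± 1.11). The ratio of first to later introns was 2.34 in replicate 1 and 2.48 in replicate 2.

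What counts as first depended on the transcript. The intron was the first in every transcript there for 182 of the 584 (31.2%), and it was the first intron of the longest coding transcript for 167 (28.6%), against 18.7% of eligible bases. With that stricter naming the ratio of first to later introns was 1.74.

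Density changed more across lengths than between first and later introns. Introns up to 500 bp held 11.5 summits per Mb, those of 501 to 1000 bp 14, those of 1001 to 2000 bp 18.4, those of 2001 to 5000 bp 43.7, and those over 5000 bp 82.2. In the replicates' own lists the shortest class had 11.4 ± 0.114 per Mb and the longest 84.0 ± 0.277 (SD, n = 2). The median intron that held a summit was 3373 bp, against 944 bp for an eligible base, and it was 4345 bp for summits in first introns and 2101 bp for summits in later ones. The lead of first introns was not the same in every length class. The ratio was 2.79 in introns of 1001 to 2000 bp (2.33 ± 0.135 over the replicates) and 1.76 in those of 2001 to 5000 bp (1.94 ± 0.331). It was 1.17 in introns over 5000 bp (1.20 ± 0.0230), and in introns up to 500 bp it was 0.794 in replicate 1 and 1.29 in replicate 2, so no direction can be given there. First introns of that shortest class held 8 of the summits.

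**Figure D3:**
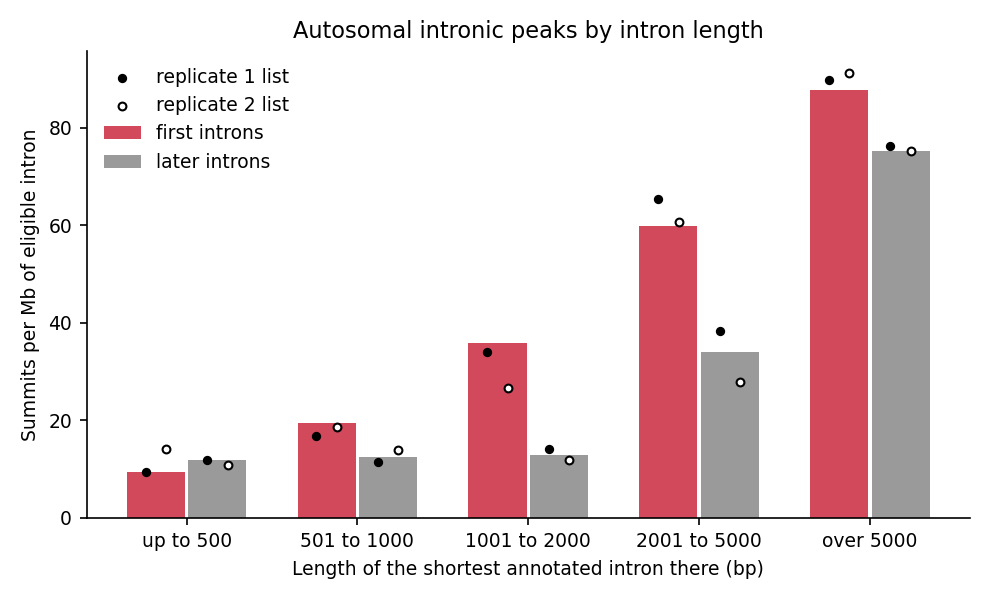
Summits of autosomal intronic peaks per Mb of eligible intron, by length of the shortest annotated intron at the summit (bp), in first introns (red bars) and later introns (grey bars); bars are the pooled list, filled points the replicate 1 list and open points the replicate 2 list. Introns over 5000 bp held 87.7 per Mb as first introns and 75.3 per Mb as later introns, against 9.38 and 11.8 in introns up to 500 bp.

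First introns were also the denser ones at each range of 501 to 8000 bp from a 5′ end. Intron length was not held fixed within these ranges, so the ratios mix distance with length. In introns over 5000 bp, at all distances together, the ratio was 1.17. Summits were 257 to 20132 bp from the nearest protein-coding 5′ end, with a median of 1636 bp, close to the 1687 bp median of eligible bases. At 1001 to 2000 bp from a 5′ end, first introns held 70.6 per Mb and later introns 22.3, a ratio of 3.17 (3.36 ± 0.456, SD over 2 replicates). At 4001 to 8000 bp it was 5.50 (5.31 ± 0.230), from 21 summits in 0.217 Mb of first intron, and beyond 8000 bp the 0.0102 Mb of first intron held none. At 251 to 500 bp the ratio was 2.53 in replicate 1 and 1.28 in replicate 2, from 8 summits in later introns in the pooled list. The nearest were in nhr-10, a nuclear hormone receptor gene, at 257 bp, ZK673.11 at 258 bp and dlk-1, a kinase gene known for axon regeneration, at 280 bp. The farthest were a pair in gcn-1, a homologue of the yeast translation regulator GCN1, at 20132 and 17649 bp, and another in ppfr-1 at 14210 bp.

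Many summits lay between alternative 5′ ends of their own host. The nearest 5′ end belonged to the host for 517 of the 584, and 311 summits lay upstream of an internal 5′ end of the host, 111 of them by 1001 to 2000 bp. The share of eligible intron bases placed in these ways was not computed, so no excess can be read from these counts. A promoter summit lay within 1000 bp of 39 of the 584 members (6.68%), against 4.15% of autosomal intergenic peaks. The peak interval reached into a promoter window in 60, and overlapped a promoter peak in 2. Cut into 3 equal lengths from the 5′ side, the introns held 184 summits in the 5′ part, 257 in the middle and 143 in the 3′ part. The rule removes intron sequence near 5′ ends, and the eligible bases of each part were not counted. These 3 counts therefore show no preference for a part. Just inside the rule, the 13 members 251 to 350 bp downstream of a 5′ end had a median signal of 71.47, and the 28 intronic summits 151 to 250 bp downstream, just outside it, had 93.46. On the upstream side, 11 members at 1001 to 1100 bp had a median of 82.98 and 13 intronic summits at 901 to 1000 bp had 112.1.

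By chromosome, members numbered 108 on I, 118 on II, 142 on III, 122 on IV and 94 on V. Per Mb of eligible intron the replicate lists gave 33.7 ± 1.79 on III, 30.2 ± 2.13 on II, 27.7 ± 1.14 on IV, 23 ± 0.581 on I and 20.6 ± 0.310 on V (SD, n = 2). The order of III and II, and of II and IV, lies close to the spread of the replicates. Over all autosomes the figure was 26.8 ± 1.01, against 38.9 ± 1.93 on X.

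The 584 peaks fell in 409 host genes, which is 2.8% of the 14626 autosomal protein-coding genes with eligible intron. Of the hosts, 314 held 1 peak, 55 held 2, 21 held 3 and 19 held 4 or more, and those 19 held 101 of the peaks. In 4 cases the summit lay in introns of 2 genes at the same place, counted for both. Hosts had a median of 3660 bp of eligible intron, against 630 bp for all these genes. A peak in the host's own promoter window was present for 177 of 409 hosts (43.3%, Wilson 95% interval 38.6 to 48.1), against 18.6% of all genes with eligible intron. Among the 3318 genes with at least 1729 bp of eligible intron, the lower quartile of hosts, 45% of hosts and 20.9% of the other genes had a promoter peak. A peak at any of a gene's annotated 5′ ends counted, and genes were not matched on their number of 5′ ends, a median of 2 in hosts.

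The hosts with most peaks were ppfr-1 (chrI:9364099-9389982), pkg-2 (chrIV:8520894-8538187) and daf-5 (chrII:14033216-14052304), with 7 each. After merging members that overlap, ppfr-1 and daf-5 had 6 and pkg-2 kept 7. In ppfr-1 all 7 were in later introns, their signals ran from 65.11 to 617.8, and all 7 were among the strongest regions of both replicates. Its strongest peak overlapped a neighbour in the same region of each replicate's list, so these 7 make 6 separate regions. The gene pkg-2 encodes a cGMP-dependent protein kinase. Its peaks ran from 66.03 to 301.6, none in a first intron, with 5 of 7 among the strongest of both replicates, and 3 held TGACG. In daf-5, whose product is the Sno/Ski protein that opposes dauer TGF-beta signalling, all 7 lay in first introns, 6 of them in an intron of 14446 bp. Their signals ran from 69.81 to 242.6, and the strongest, shown above, had relative signals of 2.40 and 2.25 in replicates 1 and 2.

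A further 5 hosts had 6 peaks each, namely fkh-7 (chrIV:5584684-5610378), ncl-1 (chrIII:7719729-7738105), daf-16 (chrI:10750498-10776703), sea-2 (chrII:3950377-3972140) and T28B11.1 (chrV:10712160-10732422). In fkh-7 all 6 were among the strongest regions of both replicates, 5 of them in the long first intron, and the next below its 763.6 peak had a signal of 284.4. In ncl-1 all 6 lay in introns that are first in some transcript, with a next strongest of 225.9. The gene daf-16 encodes the FOXO factor of the insulin pathway. None of its 6 peaks was in a first intron, and their signals ran from 62.88 to 271.6. The strongest of these held TGACGTGG and had relative signals of 2.48 in replicate 1 and 2.60 in replicate 2. In sea-2, a zinc-finger gene known as an autosomal signal in sex determination, the 6 lay in later introns at 63.41 to 159.7. In T28B11.1 all 6 lay in a first intron of 17091 bp at 66.75 to 126.5, and 3 of 6 were among the strongest regions of both replicates.

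**Figure D4:**
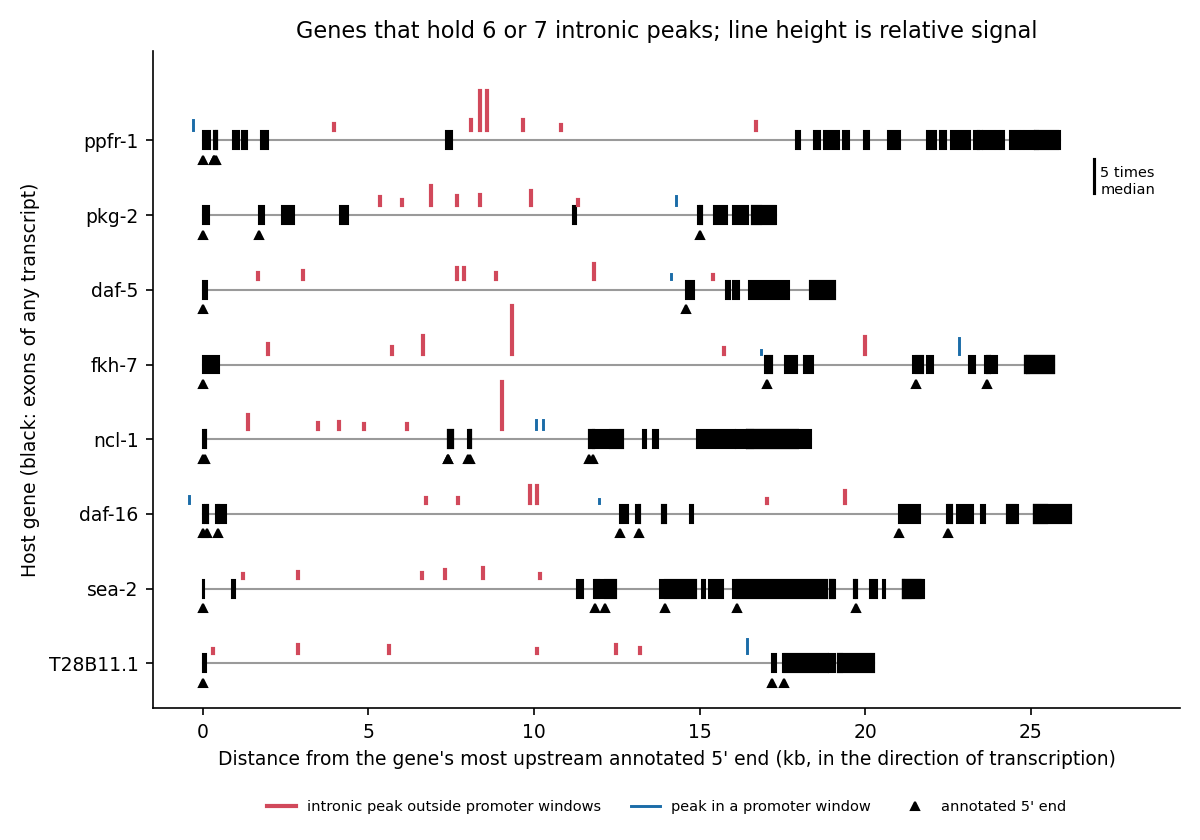
Maps of the 8 host genes with 6 or 7 autosomal intronic peaks, in kb from the most upstream annotated 5′ end in the direction of transcription; black boxes are exons of any transcript, triangles annotated 5′ ends, red lines intronic peaks and blue lines peaks in a promoter window, with line height showing mean relative signal of the 2 replicates. The tallest lines are those of fkh-7, ncl-1 and ppfr-1, and the peaks of T28B11.1 and fkh-7 spread through first introns of 17091 and 16465 bp. Neighbouring members that overlap the same replicate region share its value, so the weaker is drawn as tall as the stronger. This holds for pairs in ppfr-1 (5.79), daf-5 (1.66) and daf-16 (2.54).

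Hosts with 5 peaks were nhr-19, unc-43, aakg-1, egl-27, Y67D8A.2 and hlh-30. After merging members that overlap, aakg-1 and Y67D8A.2 had 4 and egl-27 had 3. Among these, unc-43 encodes the calcium/calmodulin-dependent kinase II, aakg-1 a gamma subunit of AMP-activated kinase, egl-27 an MTA1-type chromatin protein, and hlh-30 the TFEB homologue of autophagy and lysosome genes. All 5 peaks of nhr-19 (signals 67.83 to 411.6), of unc-43 (68.34 to 290.2) and of hlh-30 (65.73 to 147.9) were in first introns, and none of the 5 in Y67D8A.2 (93.26 to 192.6) was. Hosts with 4 were pqn-41, ercc-1, F57A8.1, tir-1 and mbk-2. The 4 in pqn-41 had the highest floor of these, with signals of 197.9 to 406.2. Those in ercc-1, a nucleotide excision repair gene, ran from 86.59 to 245.5, and those in mbk-2, a DYRK-family kinase gene, from 62.99 to 120.0.

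Named gene families differed in how many of their members were hosts. These lists are described by counts beside the 2.8% of all genes with eligible intron and the 26.8 peaks per Mb of all eligible intron. Neither figure is matched for intron length, and peaks per Mb rose with it. Median eligible intron per gene was 630 bp for all genes, against 2598 bp for bZIP and 3588 bp for synapse and vesicle genes. It was 4972 bp for axon guidance and adhesion genes, but 650 bp for nuclear hormone receptor genes and 470 bp for chemoreceptor genes. The part of intron length in the shares below was not tested. Of 22 bZIP transcription factor genes, the family of CRH-2 itself, 7 were hosts (31.8%), with 11 peaks at 132 per Mb. They were zip-3, which restrains the mitochondrial stress response (strongest peak 168.7), jun-1, the Jun homologue (138.3), skn-1, the Nrf homologue of the oxidative stress response (125.2), crh-1, the CREB homologue (111.9), zip-5 (111.8), atf-7, an ATF2-type factor of the innate immune pathway (91.60), and let-607, another CREB3-family gene (72.78). The strongest peak of each lay in a first intron of some transcript. The 3 peaks of jun-1 make 2 after merging those that overlap. In crh-1 the 2 relative signals were 1.08 and 1.01 in replicates 1 and 2, and in zip-3 they were 1.73 and 1.45.

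Nuclear hormone receptor genes gave 10 hosts of 243 (4.12%, 69.5 peaks per Mb), led by nhr-19, nhr-34 (293.0) and nhr-46 (192.9). None of 66 homeobox genes was a host, in 0.136 Mb of eligible intron. Heterochronic genes, which time larval development, gave 4 of 17 (sea-2, blmp-1, dre-1 and nhr-85), with 9 peaks at 125 per Mb. Of these peaks, 6 were in sea-2. The dauer and growth TGF-beta genes held 9 peaks at 180 per Mb, 2 in daf-14 and 7 in daf-5 (6 after merging overlaps). Of these genes 2 of 18 were hosts. Of the insulin and FOXO genes 1 of 14 was, daf-16, with 6 peaks (5 after merging those that overlap) at 90.1 per Mb. Of the EGF, Ras and MAP kinase genes 5 of 27 were, at 64.6 per Mb. They were mpk-1, the ERK homologue (314.9), dlk-1 (253.2), the SARM-type adaptor gene tir-1 (170.3), the ETS factor gene lin-1 (168.3) and the JNK gene jnk-1 (113.0). Of the Wnt genes 2 of 27 were, cam-1 (70.39) and lit-1 (66.39), at 22.9 per Mb.

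Among tissue lists, 5 of 23 intestinal genes were hosts (21.7%, 125 peaks per Mb). They were ifo-1 and ifb-2, of the intermediate filament layer under the apical membrane (157.9 and 68.26), erm-1, the ezrin homologue of the apical cortex (148.1), eps-8, an actin regulator of microvilli (95.62), and ttm-1, a zinc transporter gene (85.65). Synapse and vesicle genes gave 9 of 42 (21.4%, 42 per Mb), led by ida-1, of dense core vesicles (164.0), unc-41, the stonin homologue of endocytosis (119.4), and egl-8, a phospholipase C beta gene (89.43). Axon guidance and adhesion genes gave 8 of 58 at 21.5 per Mb, led by unc-119 (155.2), the cadherin gene hmr-1 (125.0) and the contactin gene rig-6 (108.8). The strain's genotype holds the unc-119 allele tm4063 and a transgene, and whether that allele, or any unc-119 sequence carried with the transgene, bears on the 2 unc-119 peaks was not tested. Ion channel genes gave 7 of 184 at 10.8 per Mb, led by twk-5, a potassium channel gene (125.0), and itr-1, the IP3 receptor gene (109.1). The unc-41 and twk-5 summits were 24 and 78 bp from snoRNA genes, whose part in these signals was not tested.

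Muscle sarcomere and attachment genes gave 1 of 37 hosts at 5.16 per Mb, and hypodermis and molting genes 1 of 85 at 4.36 per Mb. In both it was mup-4, whose product links epidermis to cuticle (112.8), and which is on both lists. Cuticle collagens gave 3 of 96 at 78.4 per Mb (col-85, col-72 and col-99). Lipid metabolism genes gave 10 of 105 at 76.4 per Mb, led by the acyl-CoA synthetase gene acs-13 (159.4), the phosphoethanolamine methyltransferase gene pmt-1 (159.0) and the carnitine palmitoyltransferase gene cpt-6 (118.7). Endoplasmic reticulum folding and unfolded protein response genes gave 1 of 19 at 33.4 per Mb, dnj-20 (90.90). RNA-binding genes gave 3 of 55 at 41 per Mb, larp-1, asd-2 and exc-7. Germline genes gave 1 of 77 at 13.2 per Mb, spe-15, a myosin VI gene (214.9). Chemoreceptor genes gave 4 of 1238 (0.323%, 5.05 per Mb), and cytosolic ribosomal protein genes 0 of 31, in 0.00349 Mb of eligible intron.

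Most motifs searched were more frequent at the summits than in intron sequence at large. The core TGACG was within 50 bp of the summit, on either strand, in 113 of 584 windows (19.3%, Wilson 95% interval 16.3 to 22.7), against 23.1% of promoter peaks, 20.9% of intergenic peaks and 21.5% of all peaks. Of 215526 windows of the same length tiled over eligible intron, 8.42% held it. In the replicates' own lists it was in 21.2% and 18.7% of members. The palindromic TGACGTCA was in 7 windows (1.20%), against 1.29% of all peaks and 0.67% of tiles. TGACGTGG was in 22 (3.77%, interval 2.50 to 5.64), against 1.86% of promoter peaks (1.42 to 2.43), 4.68% of intergenic peaks, 2.37% of all peaks and 0.159% of tiles. TGACGTGT was in 5 (0.856%), against 1.2% of all peaks and 0.113% of tiles. All 3 contain TGACG, so their matches are also counted there.

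Among members, the 22 with TGACGTGG had a median signal of 142.8, against 91.22 for those without. They included the fkh-7 and ncl-1 peaks shown above, dnj-24 (391.4), pde-6, a phosphodiesterase gene (309.1), and daf-16 (271.6), and 13 of 22 were in first introns. The 7 with TGACGTCA had a median of 75.38, the highest being crh-1 at 111.9.

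GAGAGAGA was in 54 windows (9.25%, interval 7.16 to 11.9), against 5.17% of promoter peaks (4.40 to 6.06), 11.1% of intergenic peaks, 6.43% of all peaks and 0.569% of tiles, with 6 windows holding TGACG as well. CACGTG was in 48 (8.22%), against 7.36% of all peaks and 1.36% of tiles, and the 48 had a median signal of 125.9, against 90.23 for the others. TGATAA was in 129 (22.1%, 18.9 to 25.6), against 15.8% of promoter peaks (14.5 to 17.3), 18.7% of all peaks and 8.33% of tiles. Its share was similar in autosomal intergenic peaks (22.8%, 20.2 to 25.6) and higher in X intronic peaks (30.5%, 24.1 to 37.9), so it is not particular to autosomal introns. GGGCGG was in 24 (4.11%), against 4.01% of all peaks and 1.73% of tiles. TTGCGCAA, a C/EBP-type site, was in 0 of 584, for which the Wilson interval reaches 0.653%, against 0.366% of all peaks. The control palindromes CTACGTAG and AGTCGACT were each in 0 of 584, against 0.0174% and 0.0872% of all peaks and 0.18% and 0.0376% of tiles. None of the 9 motifs was present in 279 windows (47.8%), against 51.7% of all peaks and 80.7% of tiles.

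Base composition differed between member windows and tiles, and only TGACG and GAGAGAGA were compared within a range of GC. Member windows were 43.0% ± 7.77 GC (SD over 584 windows), against 32.8% ± 8.51 for tiles. Among windows of 40 to 45% GC, TGACG was in 35 of 139 members (25.2%, interval 18.7 to 33), against 13.3% of tiles, and GAGAGAGA in 12 of 139 (8.63%, 5.01 to 14.5), against 1.37% of tiles. Windows near one another and genes with several peaks share sequence, and the intervals cover counting error only.

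**Figure D5:**
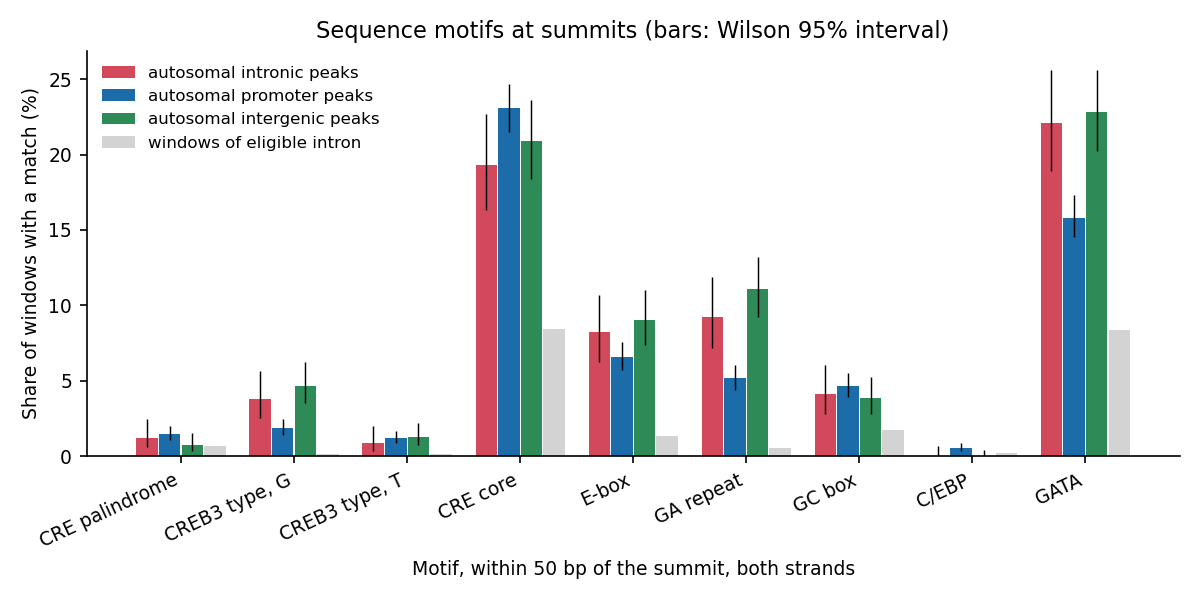
Share of 101 bp summit windows (percent) with a match on either strand to each of 9 motifs, for autosomal intronic peaks (red), autosomal promoter peaks (blue), autosomal intergenic peaks (green) and windows tiled over eligible intron (grey); lines on the peak classes are Wilson 95% intervals. The 3 leftmost groups are TGACGTCA, TGACGTGG and TGACGTGT, followed by their core, whose share of 19.3% in intronic peaks stands above the 8.42% of tiles.

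A small set of intronic peaks had summits close to non-coding RNA genes. Of the 584 summits, 91 (15.6%) were within 200 bp of an annotated non-coding RNA gene, against 5.85% of tiles. Small nucleolar RNA (snoRNA) genes accounted for 19 (3.25%, against 0.127% of tiles), snRNA genes for 5 (0.856%, against 0.0408%) and tRNA genes for 4 (0.685%, against 0.0631%). Genes annotated only as ncRNA accounted for 50 (8.56%, against 2% of tiles). piRNA genes went the other way, with 11 members (1.88%), against 3.45% of tiles. By intron length, 46 of 144 summits in introns up to 1000 bp (31.9%) were near such a gene, against 45 of 440 (10.2%) in longer introns. The share of tiles near such genes was not computed by intron length, so no excess in short introns can be read from these shares.

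The 29 peaks next to snoRNA, snRNA, tRNA or miRNA genes had signals of 65.06 to 489.9 with a median of 135.7, above the 92.09 of all members. By type, the median was 139.4 for the 19 near snoRNA genes, but 90.61 for the 4 near tRNA genes. Of the 29, 6 lay in first introns, 3 held TGACG, 0 held GAGAGAGA and 23 held none of the 9 motifs, and 22 were among the strongest regions of both replicates. The strongest were in dhc-4 (489.9, snRNA gene 25 bp away, relative signals 4.52 and 4.32 in replicates 1 and 2), ppat-1 (232.7, snoRNA gene 39 bp away) and rol-3 (226.0, snoRNA gene 50 bp away). The last 2 of these hosts were chosen after their values were seen. The part of the nearby RNA genes in these signals was not tested.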

How the data were processed

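Regions came from 2 biological replicates of 1 group. The peaks, per the submitters' file names, passed an irreproducible discovery rate (IDR) step, and all 5735 were identical to regions of the pooled list of 30000. Which aligner and peak caller were run is not given in the sources used here. Signal per region is the authors' deposited value, with a scale that is not stated, so it was ranked within a list and divided by each replicate's median (56.19 and 50.92). The −log10 q-value and the summit offset, deposited by the authors as another value of the format, were read too, and the offset gave the summit. Lists on ce10 were not used. Read depth is unknown.

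Summits were placed with the Ensembl annotation, release 115, on WBcel235, which has the chromosome names and lengths of ce11, using Python 3.11.15 and numpy 2.4.6. The deposited intervals needed 1 bp of overlap to match between lists. Densities used the strongest 5735 regions of each replicate. Intervals are Wilson 95%. The code was tested on simulated data with known positions. Named genes are hosts of the 20 strongest members, of 4 or more members, of up to 3 leading members in each of 21 gene lists, of the strongest member with each CREB-type or GA motif, and of the extremes in distance or replicate fold. Named beyond this rule, after their values were seen, were the other hosts of lists named in full, the 5 peaks found in neither top list, pde-6, ppat-1 and rol-3. Both the members and the lists were chosen with earlier results of these data known. No test was run. Replicates are biological by label only, so the SD may be technical. Alternatives were 2 other promoter windows, the midpoint of a peak in place of its summit, the region with the largest overlap in place of the strongest, the stronger 2867 peaks, each replicate alone, the longest coding transcript, a stricter overlap and a wider motif window. Chosen after seeing the data were introns of all transcripts, merging of overlapping members, and leaving out members near non-coding RNA genes.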

Additional observations from a re-analysis of the deposited data

How the results depend on the processing

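Of 73 alternative values, 51 stayed within the limits set for their result and 22 moved. The 51 include the 11 values from the midpoint of a peak, all identical to the main ones. The summit already was the midpoint in 550 of the 584 members, so that setting could hardly differ. With promoter windows reaching 500 bp upstream and 100 bp downstream, the intronic share of autosomal peaks was 15.72%, the first-intron share 50.56% and the share of hosts with a promoter peak 33.33%. With 2000 bp and 500 bp these were 8.822%, 42.18% and 51.61%, the first-to-later ratio was 2.74 and the median relative signal 0.9111. The stronger 2867 peaks gave 233 members in 176 hosts, an intronic share of 10.13%, a ratio of 2.622, 100% among the strongest of both replicates, a relative signal of 1.441, 34.66% of hosts with a promoter peak, and a rank correlation of 0.6981. These settings change the number of peaks or of eligible bases by construction, and beyond that the cause was not tested. Using the longest coding transcript gave 28.6% in first introns and a ratio of 1.743. Over the lists of each replicate alone the ratio was 2.338 to 2.48. Within 100 bp of the summit TGACG was in 32.88% of members and GAGAGAGA in 16.44%, against 17.1% and 1.13% of tiles. Without the members near non-coding RNA genes the relative signal was 0.8926. Introns of all transcripts gave 586 members, and merging overlaps 571. No overall ratio of first to later introns fell below 1 under these settings. No paired analysis was possible because the results come from no test and no groups of samples were compared. Read depth is unknown, so no limit of detection can be given.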
